A study of Mus musculus with 6 samples.

Results

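Osteogenic transcription factors are the DNA-binding proteins that direct a mesenchymal stem cell (MSC) towards the osteoblast, the cell that lays down bone. The group described here has 9 genes, chosen by symbol from the 17457 genes of the expression table: the RUNX genes Runx1, Runx2 and Runx3, their partner Cbfb, the zinc finger gene Sp7, and the homeobox genes Dlx3, Dlx5, Msx1 and Msx2. The rule used the symbols alone. All 9 were in the table and all 9 passed the filter on low values, at least 1 FPKM in at least 2 libraries, which 11405 genes passed. FPKM, the fragments of a gene relative to its transcript length and to all mapped fragments, is a level per length, so genes can be compared with one another within a library.

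The cells were murine MSCs from the tibias and femurs of 10-week-old female wild-type C57BL/6J mice, whose bones had been flushed of marrow and digested with collagenase. Cultured MSCs (n = 4) came from the mixed bone cells after 10 days in MesenCult medium and were sorted only then, whereas primary MSCs (n = 2) were sorted straight from the digest. Both groups were sorted as CD45-, Ter119-, CD31-, Sca-1+ and PDGFRα+ cells, and each cultured library came from 2 mice, whereas the primary libraries were pools from 4 and 6 mice. A difference between the groups may thus lie in which cells were present as well as in what each cell expressed, and in bulk samples fewer cells of a type and less RNA per cell cannot be told apart.

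RUNX proteins bind DNA through the Runt domain, most strongly as a pair with CBFβ, the product of Cbfb, which does not bind DNA itself. Runx2 is required in mice for osteoblasts to form, and Sp7, also called osterix, acts downstream of it. The DLX and MSX homeodomain proteins are regulated by bone morphogenetic proteins (BMPs) and take part in forming the skeleton, teeth and limbs. In general terms DLX proteins activate and MSX proteins repress transcription.

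The 3 RUNX genes share a pair of RUNX sites near an annotated start, and these are shown first because so few promoters hold such a pair. The sequences are RefSeq promoter windows on GRCm38.p6, which run from 250 bases before to 50 bases after a start site. The RUNX site was searched as ACCACA on both strands. In the 30 bases shown for each gene, 5′ to 3′ on its own strand, capitals mark each ACCACA.
Runx1: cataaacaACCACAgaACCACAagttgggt
Runx2: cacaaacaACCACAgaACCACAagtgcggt
Runx3: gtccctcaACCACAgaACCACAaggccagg
The stretches lie at chr16:92826025-92826054 on the minus strand, chr17:44814583-44814612 on the minus strand and chr4:135120503-135120532 on the plus strand. The first ACCACA began 28 bases after the start site in Runx1, 23 bases after it in Runx2 and upstream of it, at -134, in Runx3. Both copies are 2 bases apart in every case. A pair of ACCACA on one strand with a gap of at most 4 bases was present in 20 of 32851 windows (0.0609%), and a single RUNX site in 5506 of them (16.8%). The paired search was added after these windows had been read. Of the 9 factors, 6 had windows (8 in all: 3 with a RUNX site), namely the RUNX genes, Cbfb, Msx1 and Msx2.

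Runx2 has 1 more ACCACA at -80, shown in capitals in the 250 bases before this start (chr17:44814628-44814877, minus strand), since Runx2 was the RUNX gene with the clear difference between the groups.
Runx2: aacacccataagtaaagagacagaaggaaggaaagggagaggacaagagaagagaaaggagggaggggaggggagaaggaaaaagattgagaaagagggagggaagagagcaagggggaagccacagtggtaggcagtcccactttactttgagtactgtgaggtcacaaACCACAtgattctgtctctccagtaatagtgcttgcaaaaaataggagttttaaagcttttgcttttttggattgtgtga
Msx1 and Msx2, which moved in opposite directions, are shown over the same span for the homeodomain core, searched on both strands as TAATTA and as the same core ending in a guanine, TAATTG. It was found in 1 of the 8 windows, that of Msx2 (chr13:53472781-53473030, minus strand), at -187, and in 12.4% of all windows. It was not found in the Msx1 window (chr5:37824586-37824835, minus strand).
Msx1: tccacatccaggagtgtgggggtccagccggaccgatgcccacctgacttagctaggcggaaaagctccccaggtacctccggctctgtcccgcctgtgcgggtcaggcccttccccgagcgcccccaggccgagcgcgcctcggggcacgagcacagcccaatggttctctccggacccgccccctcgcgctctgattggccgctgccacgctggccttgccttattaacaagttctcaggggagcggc
Msx2: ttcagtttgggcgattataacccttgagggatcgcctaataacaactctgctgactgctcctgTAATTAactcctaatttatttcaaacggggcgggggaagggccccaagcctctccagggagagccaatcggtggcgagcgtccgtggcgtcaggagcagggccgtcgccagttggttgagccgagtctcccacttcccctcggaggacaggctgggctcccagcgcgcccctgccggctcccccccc
These matches describe letters only, and binding was not measured.

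Of the 9 factors, 3 were higher in cultured than in primary MSCs (Runx2, Runx3 and Msx2), 4 were lower (Sp7, Dlx3, Dlx5 and Msx1) and 2 were not called (Runx1 and Cbfb). The comparison was made with limma on log2 values after adding 0.1 FPKM, which makes the change of low genes look smaller than it was, and a call means a Benjamini-Hochberg adjusted p under 0.05 over all 11405 genes. Calls were common in this comparison: 65.7% of all genes were called, 48.1% higher and 17.6% lower. The median log2 difference of all genes was 0.45, towards cultured MSCs. Scaling the libraries by median ratios brought it to 0.02 and split the calls as 3346 higher and 3267 lower, in place of 5485 and 2008, and the factors as 2 higher and 5 lower. The values of cultured and primary MSCs did not overlap for 7 of the 9 factors, as for 72.8% of all genes. With a log2 difference of 2 or more in size and an adjusted p no higher than 0.01, 3 factors passed (Dlx3, Msx1 and Msx2), with a background of 14.3% of all genes. Dlx3 passed the filter through the primary libraries alone and Msx2 through the cultured ones alone, so that both had to differ. Among genes named below, the same held through the primary libraries for Tek, Hbb-bt, Dlx4, Clic5, Col22a1, Smpd3, Bglap3, Zfp423, Hey1 and Nfatc2. It held likewise for Gli1, Gli2, Zbtb16, Ebf2, Ace, Pde9a, Ifi207 and Cacna1g. Through the cultured libraries it held for Dlx2, Setd4, Pparg, Foxc2, Lef1, Patj, Msln and Taco1, besides the macrophage and blood genes marked below.

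**Figure D1:**
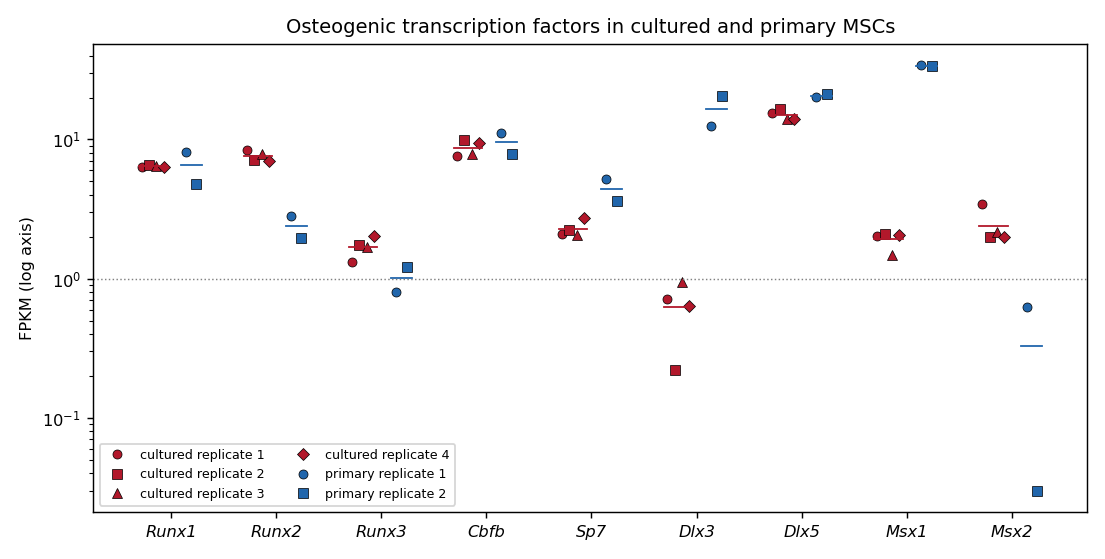
FPKM of each factor (log axis) in every library, with the 4 cultured MSCs in red on the left and the 2 primary MSCs in blue on the right of each gene; lines are group means and the dotted line is 1 FPKM. Dlx3 and Msx1 lie far lower in cultured MSCs, Runx2 and Msx2 lie higher, and Runx1 and Cbfb overlap.

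The libraries were checked with marker genes before the factors were compared. The gate gene Ly6a, which encodes Sca-1, was at 1117 to 1190 FPKM (median 1169) in cultured MSCs and at 1056 and 1711 FPKM in primary MSCs. Pdgfra, the other gate gene, was at 35.48 to 43.08 FPKM (median 39.84) in cultured MSCs and at 66.84 and 72.65 FPKM in primary MSCs. Of 14 macrophage markers, 11 were tested and 9 were higher in cultured MSCs, and their summed level was 100.19 to 312.68 FPKM there, against 33.13 and 34.66 FPKM in primary MSCs. Adgre1, Csf1r, C1qa, C1qb, C1qc, Mrc1 and Tyrobp passed the filter through the cultured libraries alone, so that their direction was fixed by it. Lyz2 (log2 difference 3.28) and Cd68 (2.56) passed it in both groups. Ptprc, which encodes the sort's exclusion marker CD45, was at 0.12 to 0.47 FPKM in cultured MSCs and at 0 and 0.02 FPKM in primary MSCs. Of 7 osteoblast markers, 4 were tested and all 4 were lower in cultured MSCs, with a summed level of 32.08 to 40.01 FPKM there, against 1406.13 and 639.06 FPKM in primary MSCs. The 6 erythroid markers summed to 0.2 to 0.61 FPKM in cultured MSCs, where Hbb-bt was at 0 in every library, and to 239.11 and 149.75 FPKM in primary MSCs. Of 5 chondrocyte and 5 tendon markers, 3 of each were lower and 1 of each was higher in cultured MSCs. The chondrocyte markers summed to 945.18 to 1476.82 FPKM in cultured MSCs, against 8647.81 and 9581.18 FPKM in primary MSCs. Chad (4853 and 4209 FPKM) and Comp (3574 and 5310 FPKM) led that sum in primary MSCs, and both were lower in cultured MSCs. Col2a1 was the higher one, at 331.32 to 723.16 FPKM in cultured MSCs, against 171.44 and 37.98 FPKM in primary MSCs. The tendon markers summed to 1165.82 to 1388.40 FPKM in cultured MSCs, against 3904.05 and 5239.39 FPKM in primary MSCs. Osteoclast markers (2 of 2 tested lower) summed to 258.07 to 287.59 FPKM in cultured MSCs, against 805.40 and 634.14 FPKM in primary MSCs. Endothelial markers (1 of 1 tested lower, Tek) summed to 0.11 to 0.43 FPKM in cultured MSCs, against 3.14 and 4.37 FPKM in primary MSCs. Tek passed the filter through the primary libraries alone, so that it had to be lower. Of 4 marrow stroma markers, 2 were lower, among them Lepr (log2 difference -3.44), and 1 was higher. The 2 primary libraries differed from each other by more than 1.5 times in osteoblast and erythroid markers, which were higher in primary MSCs 1, and in the summed gate markers (1123 and 1784 FPKM) and the scarce lymphocyte markers (0.02 and 0.63 FPKM), which were higher in primary MSCs 2. The part of these other cells in the differences of the factors was not tested.

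Runx2, the master regulator of osteoblast formation, was higher in cultured MSCs. It was at 8.34, 7.08, 7.82 and 7 FPKM in cultured MSCs 1 to 4, against 2.83 and 1.97 FPKM in primary MSCs 1 and 2. Every cultured library lay above both primary ones. The means were 7.56 ± 0.638 FPKM (SD, n = 4) in cultured MSCs and 2.40 ± 0.608 FPKM (SD, n = 2) in primary MSCs, a fold of 3.15. The log2 difference was 1.63 (SE 0.19, adjusted p = 0.000149), which is 1.19 above the median of all genes. The gene lies on chr17:44495987-44814797. Opposite to it, Runx2os1 shares 519 bases, 5.87% of the exon bases of Runx2 in GENCODE M21, and reads from that stretch cannot be told apart, since the library kit does not mark strand.

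Runx1, best known for the formation of blood stem cells and also present in skeletal progenitors, had nearly equal means. It was at 6.36, 6.54, 6.48 and 6.38 FPKM in cultured MSCs 1 to 4, against 8.19 and 4.81 FPKM in primary MSCs 1 and 2. The 4 cultured libraries sat between the 2 primary ones. On the log2 scale they differed by 0.04 (SE 0.21, adjusted p = 0.892), and the primary libraries differed from each other by 0.76 on the same scale, a gap larger than that of 81.5% of all genes. The sign turned with the scaling (-0.39 under median ratios). It also turned with the primary library left out, at 0.41 (adjusted p = 0.0331) without primary MSCs 1 and -0.34 (adjusted p = 0.0564) without primary MSCs 2. Macrophages express Runx1 too, and the part of their RNA in these levels was not tested. Runx1 is on chr16:92601466-92826074.

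Runx3, which acts in cartilage maturation and in lymphocytes, was weakly expressed. It was at 1.32, 1.75, 1.69 and 2.04 FPKM in cultured MSCs 1 to 4, against 0.80 and 1.22 FPKM in primary MSCs 1 and 2. The groups did not overlap, but the nearest values, 1.32 and 1.22 FPKM, nearly met. The log2 difference was 0.71 (SE 0.27, adjusted p = 0.048), only 0.26 above the median of all genes. The 8 other settings that removed no library include a block on the replicate number, to which cultured MSCs 3 and 4 add nothing. This call was lost under 6 of the 8, among them median ratio scaling (0.31, adjusted p = 0.358). It was also lost without cultured MSCs 2, 3 or 4 (adjusted p = 0.105, 0.0932 and 0.117) and without primary MSCs 1 (adjusted p = 0.198). Lymphocyte markers were at or near 0 in both groups, with sums of 0.02 to 0.08 FPKM in cultured MSCs and 0.02 and 0.63 FPKM in primary MSCs. Macrophage markers summed to 100.19 to 312.68 FPKM in cultured MSCs and to 33.13 and 34.66 FPKM in primary MSCs. The part of either cell type in the level of Runx3 was not tested. Runx3 is on chr4:135120645-135177990.

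Cbfb, the shared partner of the RUNX proteins, was not called. It was at 7.64, 9.84, 7.82 and 9.49 FPKM in cultured MSCs 1 to 4, against 11.20 and 7.90 FPKM in primary MSCs 1 and 2. The ranges overlap. The log2 difference was -0.12 (SE 0.19, adjusted p = 0.596), it turned to 0.13 without primary MSCs 1, and it was called lower under median ratio scaling (-0.55, adjusted p = 0.0395). Cbfb is on chr8:105170674-105217989.

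The make-up of the RUNX family followed from these levels. The 3 genes summed to 15.37 to 16.02 FPKM in cultured MSCs, against 11.82 and 8 FPKM in primary MSCs. Runx2 made up 45.4% to 52.1% of that sum in cultured MSCs, against 23.9% and 24.6% in primary MSCs. Runx1 made up 39.7% to 42.6% in cultured MSCs, against 69.3% and 60.1% in primary MSCs. Runx1 was thus the most abundant RUNX transcript per length in both primary libraries, and Runx2 in all 4 cultured ones. The share of Runx3 overlapped, at 8.24% to 13.2% in cultured MSCs and 6.77% and 15.2% in primary MSCs.

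Sp7, the zinc finger factor needed after Runx2 for osteoblasts to mature, was lower in cultured MSCs. It was at 2.11, 2.25, 2.06 and 2.74 FPKM in cultured MSCs 1 to 4, against 5.21 and 3.64 FPKM in primary MSCs 1 and 2. No cultured library reached either primary one. The means were 2.29 ± 0.311 FPKM (SD, n = 4) in cultured MSCs and 4.43 ± 1.11 FPKM (SD, n = 2) in primary MSCs, with a log2 difference of -0.91 (SE 0.22, adjusted p = 0.00753). Sp7 and Runx2 therefore moved in opposite directions. Between the primary libraries, Sp7 was higher in primary MSCs 1, which also had the larger sum of osteoblast markers. Sp7 is on chr15:102356603-102367035.

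Dlx3, a homeobox gene of skin, hair, teeth and bone, had the largest fold between group means of the 9. It was at 0.71, 0.22, 0.95 and 0.64 FPKM in cultured MSCs 1 to 4, against 12.41 and 20.46 FPKM in primary MSCs 1 and 2. All cultured libraries were under 1 FPKM. The means were 0.63 ± 0.304 FPKM (SD, n = 4) in cultured MSCs and 16.4 ± 5.69 FPKM (SD, n = 2) in primary MSCs, 26.1-fold higher in the primary ones. The log2 difference was -4.58 (SE 0.47, adjusted p = 7.3e-05), which puts Dlx3 among the lowest 1.49% of all genes. In contrast to Sp7, Dlx3 was higher in primary MSCs 2, the library with fewer osteoblast marker transcripts. Dlx3 is on chr11:95120117-95125296.

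Dlx5, which is induced by BMP signals and activates osteoblast genes, was the most abundant of the 9 in cultured MSCs. It was at 15.61, 16.50, 14.04 and 14.02 FPKM in cultured MSCs 1 to 4, against 20.08 and 21.07 FPKM in primary MSCs 1 and 2. The groups did not overlap and both were narrow. The means were 15.0 ± 1.22 FPKM (SD, n = 4) in cultured MSCs and 20.6 ± 0.700 FPKM (SD, n = 2) in primary MSCs. In log2 terms the difference was -0.45 (SE 0.12, adjusted p = 0.0113), the smallest in size of the called factors. Dlx3 made up 1.32% to 6.34% of the sum of Dlx3 and Dlx5 in cultured MSCs, against 38.2% and 49.3% in primary MSCs. Dlx5 is on chr6:6877801-6882068.

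Msx1, a homeobox gene of craniofacial and tooth development that holds progenitors undifferentiated, was the most abundant of the 9 in primary MSCs. It was at 2.04, 2.08, 1.48 and 2.06 FPKM in cultured MSCs 1 to 4, against 34.12 and 33.74 FPKM in primary MSCs 1 and 2. The 2 primary libraries nearly coincided, with a log2 gap of 0.02. The means were 1.92 ± 0.290 FPKM (SD, n = 4) in cultured MSCs and 33.9 ± 0.269 FPKM (SD, n = 2) in primary MSCs, 17.7-fold higher in the primary ones. This was a log2 difference of -4.09 (SE 0.19, adjusted p = 1.36e-06). Msx1 is on chr5:37820491-37824585. The RefSeq table lists the antisense gene Msx1os within its span, and shared exon bases were not measured for that pair.

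Msx2, its paralog, which is needed for growth of the skull and responds to BMPs, went the other way. It was at 3.42, 2.00, 2.16 and 1.98 FPKM in cultured MSCs 1 to 4, against 0.63 and 0.03 FPKM in primary MSCs 1 and 2. Every cultured library lay above both primary ones. The means were 2.39 ± 0.691 FPKM (SD, n = 4) in cultured MSCs and 0.33 ± 0.424 FPKM (SD, n = 2) in primary MSCs, a fold of 7.24. Fitted on the log2 scale, the difference was 2.98 (SE 0.62, adjusted p = 0.00316). Its size rests on which primary library is used, at 4.22 without primary MSCs 1 and 1.73 without primary MSCs 2, since these 2 libraries differed by 2.49, more than 98.8% of all genes. Msx2 is on chr13:53466881-53472780.

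**Figure D2:**
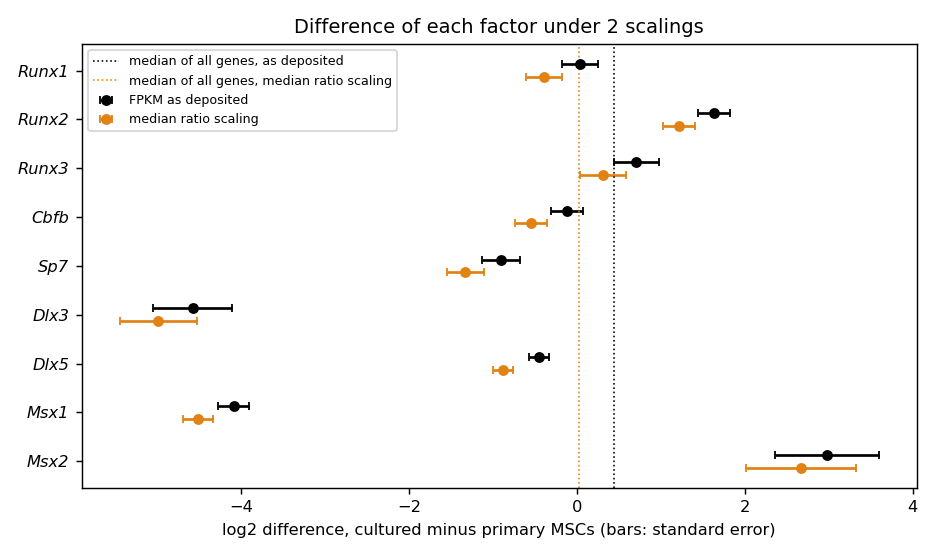
Log2 difference of each factor, cultured minus primary MSCs, with its standard error (bars), for FPKM as deposited (black) and after median ratio scaling (orange); dotted lines are the median of all genes. Scaling moved every factor to the left, turned Runx1 to -0.39 and left the order of the factors broadly as it was.

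Ordered by level, cultured MSCs had Dlx5 first, followed by Cbfb, Runx2, Runx1, Msx2, Sp7, Msx1, Runx3 and Dlx3. The ranges of Cbfb and Runx2 overlapped there, as did those of Msx2 and Sp7, of Sp7 and Msx1, and of Msx1 and Runx3. In primary MSCs the order was Msx1, Dlx5, Dlx3, Cbfb, Runx1, Sp7, Runx2, Runx3 and Msx2. Among these neighbours the ranges of Dlx5 and Dlx3, of Cbfb and Runx1, and of Runx1 and Sp7 overlapped. The 9 factors together summed to 44.50 to 48.26 FPKM in cultured MSCs, against 95.47 and 94.84 FPKM in primary MSCs.

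Linear ratios between 2 factors within a library do not depend on how the libraries were scaled, and 6 were compared. The linear ratio of Sp7 to Runx2 was 0.253 to 0.391 in cultured MSCs, against 1.84 and 1.85 in primary MSCs. The 2 primary libraries gave nearly the same ratio although each gene differed between them. Cbfb over Runx2 was 0.916 to 1.39 in cultured MSCs, against 3.96 and 4.01 in primary MSCs. Runx1 over Runx2 was 0.763 to 0.924 in cultured MSCs, against 2.89 and 2.44 in primary MSCs. Relative to each of these 3 genes Runx2 stood higher in every cultured library than in either primary one. Dlx3 over Dlx5 was 0.0133 to 0.0677 in cultured MSCs, against 0.618 and 0.971 in primary MSCs. Msx1 over Msx2 was 0.596 to 1.04 in cultured MSCs, against 54.2 and 1125 in primary MSCs, the last of which divides by a level of 0.03 FPKM. Runx3 over Runx2 was 0.158 to 0.291 in cultured MSCs, against 0.283 and 0.619 in primary MSCs, and these linear ratios overlapped. Log2 ratios with 0.1 FPKM added to each level do depend on scaling. Those of Runx3 over Runx2 did not overlap, at -2.57 to -1.73 in cultured MSCs and -1.70 and -0.65 in primary MSCs. On the log2 scale with 0.1 FPKM added, the differences were -2.54 for Sp7 over Runx2, -1.75 for Cbfb over Runx2, -1.60 for Runx1 over Runx2, -4.13 for Dlx3 over Dlx5, -7.07 for Msx1 over Msx2 and -0.92 for Runx3 over Runx2. The 2-sided exact permutation test gave p = 0.0667 for each, 0.0667 also when adjusted over the 6, the smallest that 4 libraries against 2 allow, so that no ratio could pass 0.05.

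**Figure D3:**
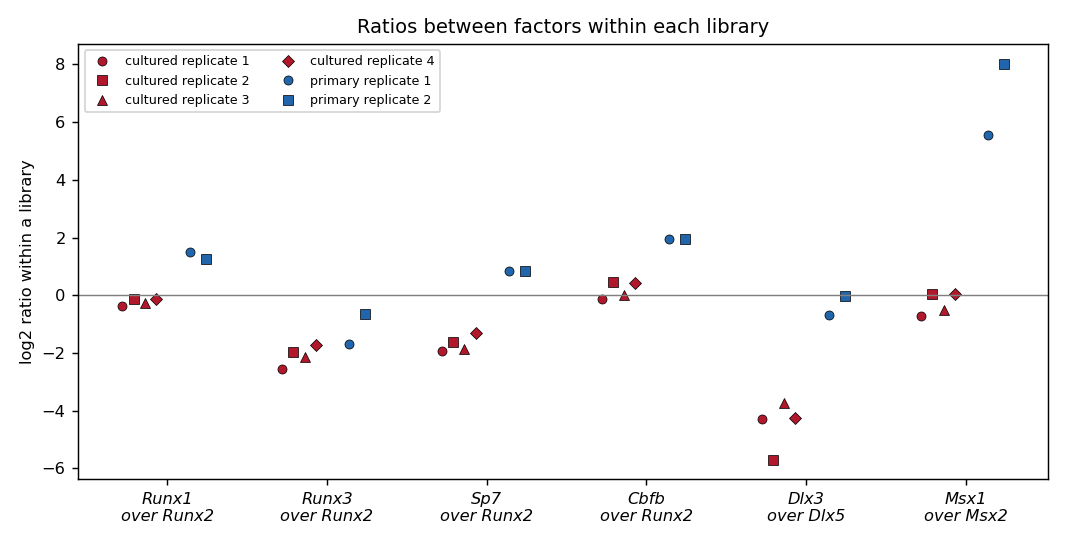
Log2 ratio of 2 factors within each library, with 0.1 FPKM added to each level, for cultured MSCs (red, left) and primary MSCs (blue, right). Sp7 and Cbfb over Runx2 were nearly the same in both primary libraries, and Msx1 over Msx2 showed the largest gap.

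Other members of the same gene families did not follow one direction. Of 13 listed paralogs, 12 were in the table and 5 were tested, of which 1 was higher, 2 were lower and 2 were not called, while median ratio scaling gave 4 lower. Dlx2, a homeobox gene of the branchial arches and forebrain, was at 3.39, 4.65, 5.05 and 4.34 FPKM in cultured MSCs 1 to 4, against 0.02 and 0 FPKM in primary MSCs 1 and 2. It was higher in cultured MSCs (log2 difference 5.33), the opposite direction to Dlx3. Dlx4 was lower, at 0.27, 0.11, 0 and 0.19 FPKM in cultured MSCs 1 to 4, against 1.81 and 2.91 FPKM in primary MSCs 1 and 2 (log2 difference -3.46, adjusted p = 0.000734). Dlx2 passed the filter through the cultured libraries alone, and Dlx3 and Dlx4 through the primary ones alone, so that these directions were set by it. Sp1, a general activator, was also lower (-0.89, adjusted p = 0.0082). Dlx1 was at 0.18 to 0.69 FPKM in cultured MSCs and at 0.02 and 0 FPKM in primary MSCs, and Dlx6 stayed under 0.5 FPKM in all libraries, so neither was tested.

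The neighbours of the factors on the chromosome were read as a description. Dlx4, 15.2 kb from Dlx3, was lower like it, but both passed the filter through the primary libraries alone and so had to be lower. Itga3, 43.3 kb away on the other side of Dlx3, was higher in cultured MSCs (22.04 ± 2.45 FPKM, against 0.59 and 1.09 FPKM in primary MSCs, log2 difference 4.60). Dlx6, the partner of Dlx5 at 9.83 kb, was nearly silent in both groups. Cytl1, a secreted cartilage protein gene 80.7 kb from Msx1, was at 2.27 ± 0.691 FPKM in cultured MSCs and at 1247 and 764.6 FPKM in primary MSCs (log2 difference -8.74), while Stx18 on the other side was at 25.8 ± 2.29 FPKM in cultured MSCs and 23.37 and 20.04 FPKM in primary MSCs. Supt3, which overlaps Runx2 on the opposite strand with 0 exon bases in common, was higher in cultured MSCs like Runx2, at 8.25 ± 0.318 FPKM, against 1.13 and 3.75 FPKM in primary MSCs. Clic5, 215.8 kb from Runx2, was lower (log2 difference -5.40). Beside Sp7, Aaas was higher (1.66) and Sp1 was lower. Setd4, 757.4 kb from Runx1 and only the nearest measured gene on that side, was higher (2.11). Sptlc1, 89.5 kb from Msx2, was higher (0.78). Of the measured genes nearest to Runx3, Syf2 at 183.1 kb was lower (-0.66). Clic4 at 36.0 kb was higher (0.46), a call lost under median ratio scaling.

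The genes with the most similar profile were found by the distance between log2 profiles over the 6 libraries, each centred on its mean. The nearest were Patj (0.0657) and Prorp (0.124) for Runx2, Dhdh (0.0830) and Nudt16 (0.111) for Runx1, Fbxo21 (0.0738) and Mier2 (0.116) for Runx3, and Elac1 (0.114) and Dstyk (0.170) for Cbfb. For Sp7 they were Ccdc74a (0.167) and Gnao1 (0.221), and for Dlx5 Zfp511 (0.0882) and Tbc1d17 (0.114). For Msx1 they were Ifi207 (0.250) and Cacna1g (0.307), for Msx2 Msln (0.489) and Taco1 (0.534), and for Dlx3 Ace (0.855) and Pde9a (0.892). Dlx3 thus had the least similar nearest genes of the 9. None of the 9 was among the nearest genes of another.

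The genes that osteoblast factors act on were mostly lower in cultured MSCs. Of 25 listed osteoblast target genes, 23 were in the table and 15 were tested: 13 were lower, 1 was higher (2 without primary MSCs 1) and 1 was not called, with a median log2 difference of -2.49 beside 0.45 for all genes. Among the lower ones, Col22a1, Smpd3 and Bglap3 passed the filter through the primary libraries alone, so that they had to be lower. The median given is the value of Bglap3. Ibsp, the bone sialoprotein gene, was at 7.66, 7.28, 7.22 and 9.42 FPKM in cultured MSCs 1 to 4, against 1032 and 410.9 FPKM in primary MSCs 1 and 2 (log2 difference -6.36). Bglap, the osteocalcin gene, was at 7.03, 5.74, 7.53 and 5.33 FPKM in cultured MSCs 1 to 4, against 114.4 and 65.00 FPKM in primary MSCs 1 and 2 (-3.74). Its near copy Bglap2 gave -3.77, and reads may be split between them. Col22a1, a collagen gene, gave -6.06. Alpl, the alkaline phosphatase of mineralisation, fell by 2.92. The abundant matrix genes Col1a1 and Sparc fell by 1.00 and 1.12. Spp1, the osteopontin gene, went against the rest, at 5268 to 6929 FPKM (median 6430) in cultured MSCs and at 3785 and 2474 FPKM in primary MSCs (log2 difference 1.03). These targets were therefore low in the libraries where Runx2 was high, and Sp7 and Dlx3 low. They are also markers of mature osteoblasts, whose share of the cells was not measured.

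The Bglap promoter window is shown because it holds a RUNX site in a gene that was lower while Runx2 was higher. The Ibsp window holds no RUNX site, although Ibsp was lower too (log2 difference -6.36). Spp1, which was higher, also has an ACCACA, at -128. A link between these sites and the levels was not tested. Capitals mark the ACCACA of Bglap at -132 in the 250 bases before its start (chr3:88384467-88384716, minus strand).
Bglap: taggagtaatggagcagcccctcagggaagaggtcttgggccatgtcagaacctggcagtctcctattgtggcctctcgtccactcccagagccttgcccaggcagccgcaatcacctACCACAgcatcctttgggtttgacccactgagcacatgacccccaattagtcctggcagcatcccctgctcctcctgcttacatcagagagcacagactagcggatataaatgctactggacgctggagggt
Of the 25 target genes, 20 had a window, and of their 28 windows 7 held a RUNX site, 7 a homeodomain core and 0 the pair of RUNX sites. The shares of all promoter windows were 16.8% for a RUNX site, 12.4% for a homeodomain core and 0.0609% for the pair. No test was run on these counts.

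Cofactors and modifiers of RUNX proteins were divided. Of 25 listed, 23 were tested, with 9 higher, 3 lower and 11 not called and a median log2 difference of 0.10, but with 4 higher and 7 lower under median ratio scaling. The higher ones included Hdac6 (1.25) and Hdac3 (0.99), both deacetylases, and Runx1t1 (0.99), a corepressor gene fused to RUNX1 in leukaemia. Lower were Hdac4 (-1.38), a deacetylase that represses Runx2 in cartilage, Wwtr1 (-1.03), which encodes the coactivator TAZ, and Crebbp (-0.53), an acetyltransferase. The Crebbp call was lost without cultured MSCs 3 (adjusted p = 0.0606), cultured MSCs 4 (0.0623) or primary MSCs 1 (0.124). Hdac4 was at 3.76 to 3.91 FPKM (median 3.77) in cultured MSCs, against 9.38 and 10.72 FPKM in primary MSCs. Wwtr1 was at 9.36 to 10.32 FPKM (median 9.60) in cultured MSCs, against 16.29 and 24.39 FPKM in primary MSCs. Stub1, a ubiquitin ligase, was the most abundant, at 225 ± 22.2 FPKM in cultured MSCs and 148.1 and 143.0 FPKM in primary MSCs.

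Among 12 transcription factors that restrain osteoblasts, 4 were higher, 2 were lower and 6 were not called, with a median of 0.28. Median ratio scaling gave 4 lower, as did leaving out primary MSCs 2. Pparg, the master regulator of fat cells, was at 12.47, 11.53, 10.78 and 10.70 FPKM in cultured MSCs 1 to 4, against 0.30 and 0.06 FPKM in primary MSCs 1 and 2 (log2 difference 5.50). Snai1 (1.79) and Snai2 (1.66), repressors that drive the epithelial-mesenchymal transition, were also higher. Zfp423 (-4.34), a preadipocyte factor, and Hey1 (-2.34), a Notch target, were lower. Twist1, which blocks the Runt domain of Runx2, was at 3.80 to 5.69 FPKM (median 4.70) in cultured MSCs and at 9.21 and 4.90 FPKM in primary MSCs, and was not called.

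Other osteoblast transcription factors were divided. Of 25 listed, 23 were tested, with 8 higher, 8 lower and 7 not called and a median of 0.45, close to that of all genes, and 3 were higher under median ratio scaling. Without cultured MSCs 2, 5 were higher, and without primary MSCs 2, 3 were. The higher ones included Foxc2 (3.44), Fosl2 (1.92), Maf (1.66) and Lef1 (1.16). Foxc2 was called with a wide spread, at 0.27, 1.48, 4.05 and 3.50 FPKM in cultured MSCs 1 to 4, against 0.08 and 0.04 FPKM in primary MSCs 1 and 2. Without primary MSCs 2 the calls of Foxc2 (adjusted p = 0.0591) and Lef1 (0.053) were lost, and that of Lef1 also under median ratio scaling (0.0643). The lower ones included Nfatc2 (-5.13), the Hedgehog factors Gli1 (-3.39) and Gli2 (-2.65), and Zbtb16 (-4.03). Nfatc2 was at 0.01 to 0.16 FPKM in cultured MSCs, against 4.33 and 6.21 FPKM in primary MSCs. Atf4, an abundant factor needed for osteocalcin expression, gave 0.35 with FPKM as deposited and -0.08 under median ratio scaling, and that call was lost.

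BMP response genes are given because Dlx5, Msx1 and Msx2 are known targets of that pathway. Of 8 listed, 6 were tested, with 3 higher, 2 lower (1 without primary MSCs 1) and 1 not called and a median of 0.36. Smad7 (1.58) and Id1 (1.28) were higher, as was Id3 (0.60), whose call was lost under median ratio scaling (adjusted p = 0.499) and without cultured MSCs 1 (0.0558), cultured MSCs 3 (0.0677) or primary MSCs 2 (0.197). Bambi (-1.21), a decoy receptor, and Id2 (-0.75) were lower, the second of them not without primary MSCs 1 (adjusted p = 0.125). The ID proteins block the DNA binding of helix-loop-helix factors. The inhibitor Smad7 was at 8.02 to 11.76 FPKM (median 10.0) in cultured MSCs, against 3.30 and 3.16 FPKM in primary MSCs.

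Of 14 transcription factors of other mesenchymal lineages, 11 were tested, with 3 higher, 2 lower and 6 not called, a median of -0.06, with 5 lower under median ratio scaling and 4 without primary MSCs 2. Besides Pparg, Scx, the tendon factor, was higher (1.15), and Sox6, a cartilage factor, was called higher (0.56), a call lost under median ratio scaling (0.13) and quantile normalization (0.22). The fat factors Ebf2 (-4.46) and Ebf1 (-2.04) were lower. Sox9, the master regulator of cartilage, was at 41.28 to 55.35 FPKM (median 48.7) in cultured MSCs and at 61.76 and 40.66 FPKM in primary MSCs, and was not called. Of 16 blood transcription factors, 13 were in the table and 2 passed the filter on low values, Gata2 (4.42) and Spi1 (2.76), the macrophage factor. Both passed through the cultured libraries alone, so that both had to be higher there, and with no filter 3 were higher and 2 were lower. Spi1 was at 0.41 to 1.09 FPKM in cultured MSCs, against 0.04 and 0 FPKM in primary MSCs.

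**Figure D4:**
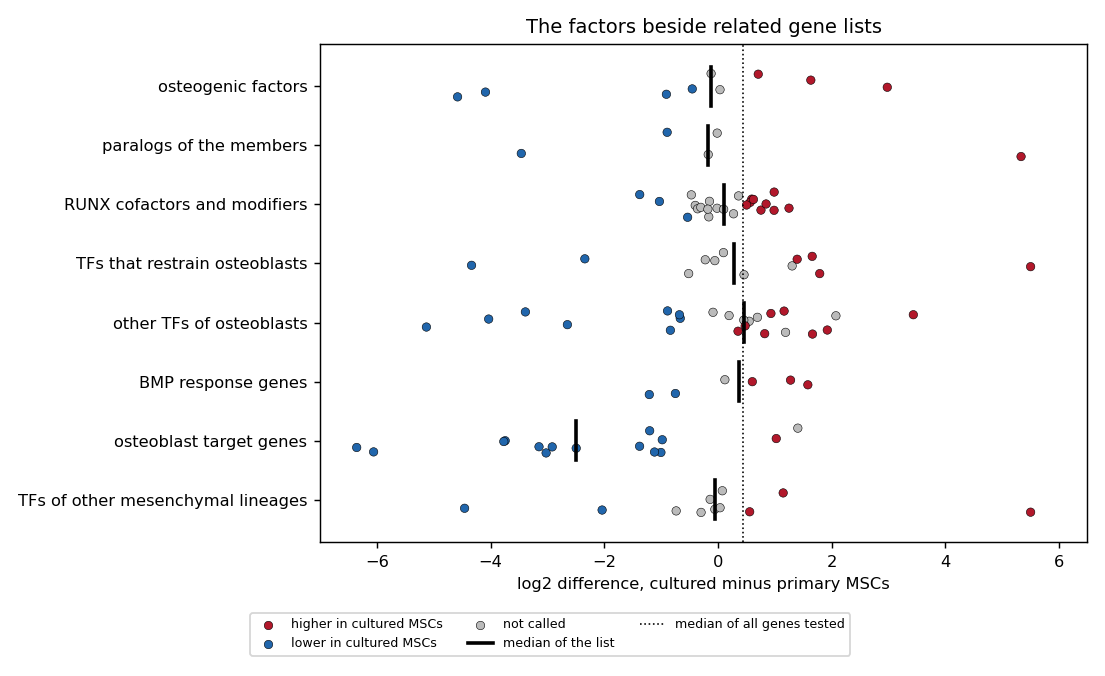
Log2 difference, cultured minus primary MSCs, of each tested gene (points) in the osteogenic factors, their paralogs and 6 related lists (rows), with list medians (black bars) and the median of all genes, 0.45 (dotted). Osteoblast target genes lie mostly to the left, at a median of -2.49, while the factors lie on both sides.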

How the data were processed

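RNA of sorted MSCs was made into cDNA with the SMART-Seq v4 kit and sequenced on the BGISEQ-500. According to the submitters' processing notes and the methods, the authors filtered reads with SOAPnuke, aligned them to GRCm38.p6 with HISAT2 2.0.4 and Bowtie2 2.2.5, quantified genes with RSEM 1.2.8 and compared groups with DESeq2. The authors deposited FPKM values with 2 decimals for 17457 genes. The column of log2 fold changes deposited by the authors was not used. The file gives no read counts, so the depth behind a value is unknown and no count test was run. FPKM sums were 612104 to 642497 in cultured MSCs and 559601 to 571471 in primary MSCs.

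The 11405 genes that reached 1 FPKM in 2 or more libraries were tested with limma 3.58.1 in R 4.3.3 on log2(FPKM + 0.1) with a variance trend (4 residual degrees of freedom) and Benjamini-Hochberg adjustment. The test was tested on simulated data. Replicates were separate samples, so p-values measure the spread between them. Coordinates came from a gene table of GRCm38.p6, in which 17402 of the 17457 IDs were found. Promoter windows came from RefSeq and exon overlaps from GENCODE M21. Protein sequences were not compared.

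The factors and gene lists were chosen with earlier results of these data known. Named genes were the 9 factors, in each list up to 4 called genes with the largest change in each direction and the 2 most abundant, the flanking measured genes, and the 2 nearest profiles, and some of these are not reported here. Outside this rule, Col1a1, Twist1, Dlx1, Supt3 and Ptprc were chosen after their values were seen. Alternatives were pseudocounts of 0.01 and 1, no filter, 3 other scalings, no trend, a replicate block and leaving out each library.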

Additional observations from a re-analysis of the deposited data

Results flagged for a closer look

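In 2 of the 9 factors, 1 of the 4 cultured libraries stood apart from the others by Dixon's test at the 95% level, which flags about 1 in 20 groups by chance. Msx1 was at 1.48 FPKM in cultured MSCs 3, while the other 3 cultured libraries were at 2.04 to 2.08 FPKM. Msx2 was at 3.42 FPKM in cultured MSCs 1, while the others were at 1.98 to 2.16 FPKM. Both values stayed on the same side of the primary libraries as the rest of their group. What set these libraries apart was not tested.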

How the results depend on the processing

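Runx2, Dlx3, Msx1 and Msx2 kept their direction and their call under all 14 alternatives, with log2 differences of 1.21 to 1.88, -5.05 to -3.40, -4.52 to -3.59 and 1.37 to 4.22. Dlx3 and Msx2 passed the filter through a single group, so that their direction was set by it wherever the filter was kept. The Runx3 call was lost at a pseudocount of 0.01 (0.76), with no filter (0.71), and after rescaling to a common FPKM sum (0.60), under quantile normalization (0.48) and median ratio scaling (0.31). Runx1 turned to -0.10 under a common FPKM sum, -0.30 under quantile normalization and -0.39 under median ratio scaling, where Cbfb passed the threshold at -0.55. With one library left out, values ran from -0.34 to 0.41 for Runx1, 0.43 to 0.98 for Runx3, -0.37 to 0.13 for Cbfb, -1.16 to -0.65 for Sp7 and -0.50 to -0.42 for Dlx5; Runx1 was -0.34 without primary MSCs 2 and Cbfb 0.13 without primary MSCs 1, and a lone primary library was assumed to vary like the cultured ones. All genes called were 3346 higher and 3267 lower under median ratio scaling and 3656 and 3039 under quantile normalization, whose medians were 0.02 and 0.09. A pseudocount of 1 moved the log2 ratio differences to -1.31 (Runx1 over Runx2), -2.05 (Sp7 over Runx2), -1.45 (Cbfb over Runx2), -2.97 (Dlx3 over Dlx5) and -4.96 (Msx1 over Msx2), since it compresses low levels. Atf4 turned to -0.082 under median ratio scaling and -0.057 under quantile normalization. Of 91 other named genes with a call, 90 kept their sign and 76 their call throughout.

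The shared replicate numbers were not taken as pairs, since the labels give no shared origin and same-numbered libraries deviated together only weakly (correlations of 0.12 and 0.05). With the replicate block, Sp7 (-0.97, adjusted p = 0.0506), Dlx5 (-0.36, adjusted p = 0.146) and Runx3 (0.57, adjusted p = 0.266) lost their calls, leaving 2 factors lower. Cultured libraries with no same-numbered primary library added nothing to that fit. The block thus compared fewer libraries, and a call lost there cannot tell a weak difference from a loss of data. The cause of the changed calls was not tested beyond what the alternatives show. Only 2 primary libraries and unknown read depth limit the weak factors, Msx2, Runx3 and Dlx3.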
